A study of Mus musculus with 6 samples.

Results

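Pancreatic RNA from mice lacking Cftr and from mice with intact Cftr was examined for 44 genes that fold, translocate, glycosylate and monitor proteins of the endoplasmic reticulum (ER). The members were the genes of a list of ER chaperones, disulfide isomerases, translocon and glycosylation subunits and stress response genes, each read through every probe set that the platform annotation ties to that gene alone. Of the 44 genes, 39 had such a probe set, and these genes had 56 of the 12488 probe sets. After a filter on dim probe sets, 50 probe sets of 35 genes were tested. In all, 7739 probe sets were tested, of which those with a single symbol covered 5804 genes. The 5 genes without a probe set of their own were Ern1, Sdf2l1, Pdia2, Syvn1 and Sec61g, and Sec61g was listed on a probe set shared with other symbols. Trib3, Hyou1, Calr and Ssr4 had probe sets too dim to test.

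The study compared 3 CFTR+/+ mice with 3 CFTR-/- mice, with 1 array of total pancreatic RNA per mouse. All 6 mice were males of 56 to 58 days with the genotype gastrin+/-, so the controls also carried a single intact gastrin allele, on a background of 95% black6 and 5% 129Sv. All received the diet Peptamen from day 10 of age, given against blockage of the intestine. Cftr is the anion channel of duct epithelium that is lost in cystic fibrosis, and CF below stands for the CFTR-/- mice. The RNA was of bulk pancreas, so a lower value from fewer cells of a type cannot be told apart from less RNA in each cell.

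The pancreatic acinar cell makes and exports more protein than nearly any other cell, and its cytoplasm is filled with rough ER. Nascent enzymes are brought to the membrane by the signal recognition particle, threaded through the Sec61 channel, freed of their signal peptide and glycosylated. They are then folded by lumenal chaperones and disulfide isomerases, or sent back to the cytosol for degradation. When unfolded protein accumulates, the sensors Atf6, Ern1 (IRE1) and Eif2ak3 (PERK) start the unfolded protein response, which raises chaperone transcription and lowers translation. Atf6 and Xbp1, the factor activated by Ern1, act through the ER stress response element (ERSE), made of CCAAT, a spacer and CCACG.

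The promoters of the members are shown first. The list did not use promoter sequence, but it holds genes of the response that acts through the ERSE. A high share of members with the element is therefore a description of the list and no independent result. RefSeq promoters of GRCm38.p6, from 250 bases before to 50 bases after a start, were found for 38 of the 44 members (no entry for Atf6, Hyou1, Manf, Ostc, Sec61a1 or Ssr2). CCAAT, any 9 bases and CCACG, searched on both strands, were found in 9 of these 38 genes (23.7%), against 37 of 27025 genes in the whole table (0.137%). Among genes tested on the arrays and listed in the table, 9 of 4646 held the element, and 7 of the 9 were members. The 10 sites of the 9 members are printed below 5′ to 3′ along the gene's own strand, with 20 bases on either side and the CCAAT and CCACG boxes, or their complements, in capitals.
Hspa5: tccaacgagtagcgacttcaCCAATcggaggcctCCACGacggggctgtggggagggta
Hsp90b1, nearer site: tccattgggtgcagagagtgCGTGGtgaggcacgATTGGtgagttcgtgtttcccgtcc
Hsp90b1, farther site: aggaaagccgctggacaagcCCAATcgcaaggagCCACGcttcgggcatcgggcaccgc
Dnajc3: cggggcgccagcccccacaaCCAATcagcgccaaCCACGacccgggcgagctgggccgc
Creld2: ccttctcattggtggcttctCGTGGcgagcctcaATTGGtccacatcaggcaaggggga
Calr: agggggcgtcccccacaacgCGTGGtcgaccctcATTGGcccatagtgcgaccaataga
Canx: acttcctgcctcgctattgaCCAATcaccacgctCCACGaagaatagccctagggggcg
Pdia6: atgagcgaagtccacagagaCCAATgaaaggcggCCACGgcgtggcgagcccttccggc
Ero1b: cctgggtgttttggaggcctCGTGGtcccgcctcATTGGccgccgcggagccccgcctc
Syvn1: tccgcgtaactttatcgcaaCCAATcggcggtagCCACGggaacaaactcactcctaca
The printed stretches lie on GRCm38.p6 at chr2:34772005-34772063 (Hspa5, plus strand), chr10:86705513-86705571 and chr10:86705618-86705676 (Hsp90b1, minus), chr14:118937807-118937865 (Dnajc3, plus), chr15:88819500-88819558 (Creld2, plus), chr8:84847055-84847113 (Calr, minus), chr11:50325780-50325838 (Canx, minus), chr12:17266471-17266529 (Pdia6, plus), chr13:12565662-12565720 (Ero1b, plus) and chr19:6046512-6046570 (Syvn1, plus). All lie upstream of the start. The end of the element nearest the start was 25 bases away in Syvn1, 46 in Hspa5 and 182 to 193 at the farthest, in Ero1b and at the farther Hsp90b1 site.

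A related arrangement, ATTGG, any 1 base and CCACG, was in 2 of the 38 members (5.26%) and in 12 of the 27025 genes (0.0444%). Herpud1 held it 41 bases before its start, within chr8:94386357-94386407 on the plus strand of GRCm38.p6, shown with the boxes in capitals.
Herpud1: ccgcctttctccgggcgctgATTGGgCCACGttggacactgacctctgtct
Dnajb11 held it after its start. The CCACG box alone, which is part of both elements, was in 29 of the 38 members (76.3%) and in 35.5% of all genes in the table. Among genes tested on the arrays and listed in the table its share was higher, at 51.5%, beside 80% of the tested members. These matches describe the letters of the promoters, not binding.

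Array medians ran from 207.8 to 234.4, and the highest value of an array from 92020.5 to 135426.3. The Gapdh 3′ to 5′ ratio, a sign of RNA quality, was 0.80, 1.46 and 0.84 in CFTR+/+ replicates 1, 2 and 3 and 0.72 to 0.87 in CF. The same ratio for Actb was 1.74, 2.16 and 1.94 in the controls and 1.75, 2.14 and 1.94 in CF, so it differed by title suffix more than by genotype. The acinar markers on the arrays, 12 of 18, were all tested, with summed intensities of 744100 to 1077000. Of the 3 Cftr probe sets, the testable one read 318, 223 and 339 in controls and 467, 314 and 364 in CF. Its position with respect to the deleted sequence is unknown here, so it is no check of the genotypes, which are taken from the labels. Of the 6 labels, that of CFTR+/+ replicate 1 alone states that the pancreas was taken entire.

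No gene of the ER machinery passed the test, and most differences were small. None of the 50 member probe sets passed an adjusted p of 0.05 in limma, against 5 of the 7739 tested (0.0646%), and the lowest adjusted p of a member was 0.40. At an unadjusted p under 0.05, 2 member probe sets were higher in CF (4%, background 4.26%) and 2 lower (4%, background 3.11%). With 1 probe set per gene, the brightest, 21 of the 35 genes had a positive and 14 a negative log2 difference, with a median of 0.09 beside 0.00 for all 5804 genes. Without CFTR+/+ replicate 1 the median of the members was -0.04, with 15 of 35 positive. The 95% interval of the difference lay within a 2-fold change either way for 28 of the 35 genes (80.0%) and within 1.5-fold for 11. Over all genes tested, 58.1% had an interval within 2-fold. The members were brighter, with a median log2 intensity of 11.07 against 9.0 for all genes, and a median residual SD of 0.25 against 0.33.

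**Figure D1:**
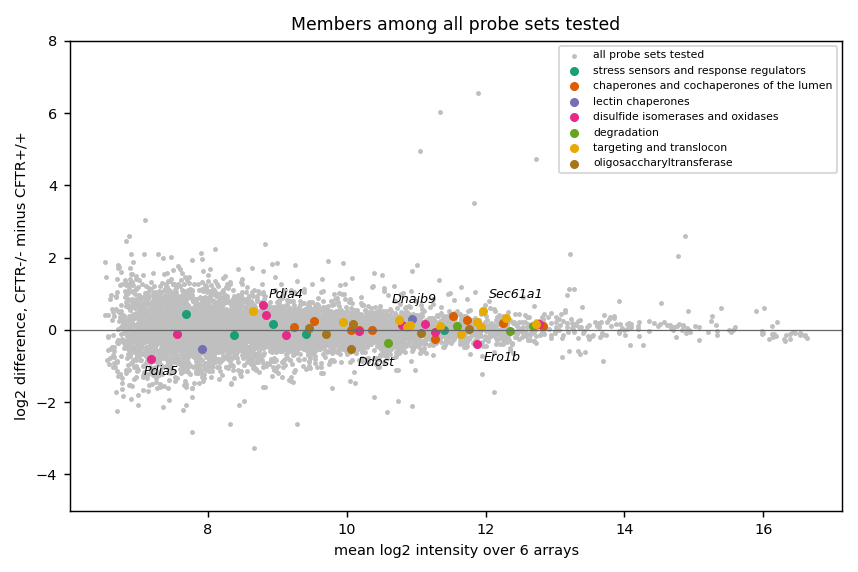
Log2 difference between CFTR-/- and CFTR+/+ (vertical axis) against mean log2 intensity over the 6 arrays (horizontal axis) for the 7739 probe sets tested, with the 50 member probe sets coloured by role. The members lie near 0 across the bright range, and Pdia5 and Pdia4 are the farthest from it.

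The 3 CF arrays lay within the range of the controls when the 35 genes were averaged. The mean log2 intensity relative to the control mean was -0.13, -0.01 and 0.14 in CFTR+/+ replicates 1, 2 and 3. The corresponding CF values were 0.08, -0.03 and 0.12. Among the roles, the stress regulators varied most between control mice, from -0.41 to 0.42. Of the 6 roles with more than 1 gene tested, none had CF means that all lay to one side of the control means. Calnexin, alone in its role, did. Within the pairs of mice that share a title suffix, the CF mean was higher in 3 of 3 pairs for targeting and translocation and for calnexin. It was lower in 3 of 3 for the 4 listed genes of the oligosaccharyltransferase and in 2 of 3 for all 35 genes together. These within-pair directions were not tested.

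**Figure D2:**
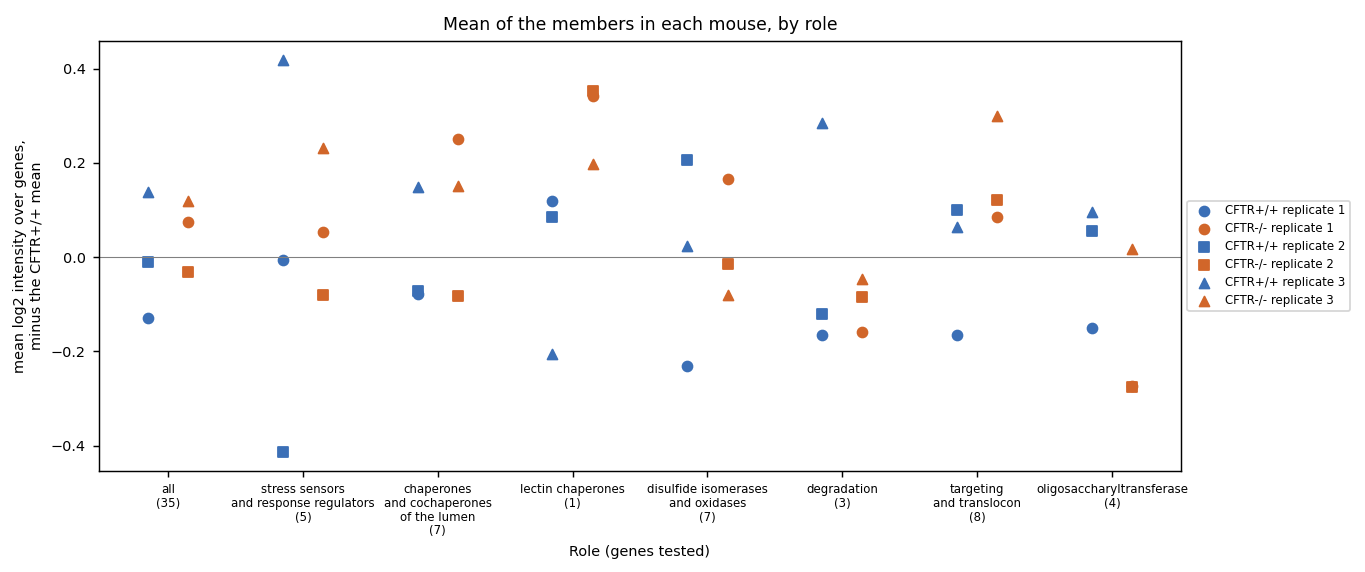
Mean log2 intensity of the tested genes of each role in each mouse, minus the mean of the 3 CFTR+/+ mice (vertical axis), with the number of genes in brackets; blue is CFTR+/+, orange CFTR-/-, and the marker shape gives the replicate. The groups overlap for all 35 genes together and for every role except the lectin chaperones, where the points are the single gene Canx.

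No sensor or regulator of the stress response passed the test. Atf4, the transcription factor translated when Eif2ak3 phosphorylates eIF2, read 3246, 1938 and 3205 in controls and 3113, 1996 and 3160 in CF. Replicate 2 was the lowest in both groups, and the log2 difference was -0.01 ± 0.26 (SE, n = 3 per group; 95% interval -0.60 to 0.58). Atf6 itself, the membrane-bound factor cut in the Golgi, read 277 to 426 in controls and 272 to 400 in CF (log2 difference -0.14 ± 0.29). Eif2ak3 read 603 to 774 in controls and 399 to 952 in CF (-0.12 ± 0.32).

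Targets at the end of that branch were measured less precisely. Ddit3, which encodes the death-promoting factor CHOP, read 282, 56.2 and 346 in controls and 206, 238 and 281 in CF. The CF values lay within the control range, which CFTR+/+ replicate 2 stretched downward. The log2 difference of 0.44 ± 0.65 had an interval of -1.03 to 1.91 and was -0.38 without that array. Ppp1r15a, the phosphatase subunit that reverses eIF2 phosphorylation, read 272, 564 and 646 in controls and 353, 749 and 535 in CF (0.17 ± 0.39). Trib3, a pseudokinase induced downstream of Ddit3, read 37.6 to 61.2 on all arrays, near the floor of 47.6. Adjusted p-values of the 5 tested regulators were 0.92 or higher in limma.

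Lumenal chaperones of the Hsp70 and Hsp90 kind overlapped between the groups. Hspa5 (BiP), the Hsp70 chaperone that also holds the sensors inactive, read 6916, 5761 and 8822 in controls and 8231, 6544 and 7985 in CF. The log2 difference was 0.10 ± 0.19 (95% interval -0.33 to 0.52), which corresponds to 1.07-fold (0.80 to 1.44). Hsp90b1 (GRP94) read 5060, 3890 and 4812 in controls and 6296, 4501 and 4906 in CF (0.18 ± 0.18, interval -0.22 to 0.59). Its CF replicate 1 was the highest of the 6 values. Hyou1, a nucleotide exchange factor of Hspa5, was listed at 6.0 to 18.6, far under the floor, so these arrays give no level for it.

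Among the J-domain partners of Hspa5, Dnajb9 had the smallest p. Dnajb9 (ERdj4), which is induced by Xbp1, read 2491, 2998 and 2323 in controls and 3882, 3144 and 3168 in CF. The groups did not overlap on this, the brighter of 2 probe sets (log2 difference 0.39 ± 0.17, unadjusted p = 0.047, adjusted p = 0.67 in limma). On its other probe set the values were 926 to 1365 in controls and 779 to 1376 in CF (0.00 ± 0.26). Dnajb11 (ERdj3) read 539 to 703 in controls and 570 to 684 in CF, a difference of 0.07 ± 0.21. Dnajc3 (p58IPK) had 3 tested probe sets, with differences of -0.26 ± 0.23, -0.01 ± 0.18 and 0.24 ± 0.34 from the brightest to the dimmest.

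Manf and Creld2, small proteins that are secreted or retained in the lumen and rise in ER stress, gave different pictures. Manf read 3021, 2935 and 3398 in controls and 4125, 3464 and 3691 in CF, without overlap (0.27 ± 0.15, adjusted p = 0.74 in limma). Creld2 read 974, 1208 and 1307 in controls and 1412, 1030 and 1055 in CF (0.00 ± 0.20). The 7 tested genes of this role had differences from -0.26 to 0.39 with a median of 0.10, and all 7 intervals lay within 2-fold.

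**Figure D3:**
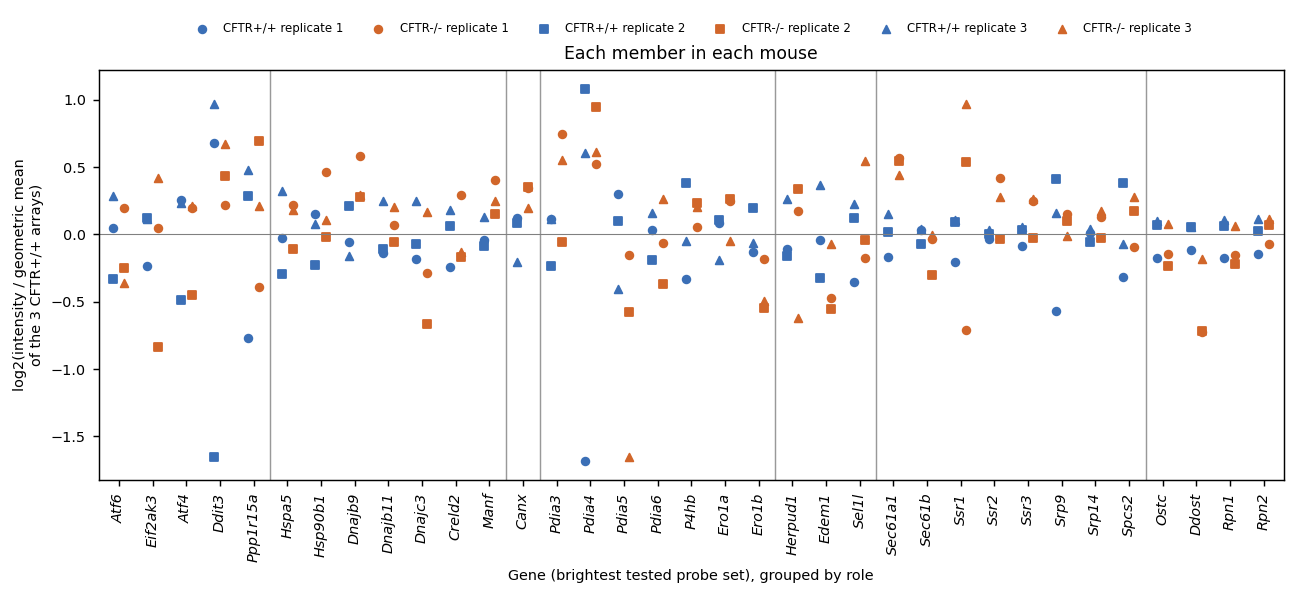
Intensity of each of the 35 tested genes in each mouse on its brightest probe set, as log2 of the ratio to the geometric mean of the 3 CFTR+/+ arrays (vertical axis), with vertical lines between roles. Blue is CFTR+/+ and orange CFTR-/-; Sec61a1, Manf, Dnajb9 and Canx have their orange points above the blue ones, Ero1b and Ddost below, and single low points mark Ddit3, Pdia4 and Pdia5.

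Calnexin and calreticulin hold glycoproteins with a trimmed sugar in the folding cycle. The brighter Canx probe set read 1923, 1877 and 1536 in controls and 2243, 2260 and 2029 in CF, higher in CF without overlap (0.30 ± 0.16, adjusted p = 0.74 in limma). The dimmer one read 349, 251 and 275 in controls and 246, 180 and 185 in CF, lower without overlap (-0.52 ± 0.31, adjusted p = 0.77). The 2 probe sets therefore gave opposite directions, and their mean was -0.11. Calr was at 4.6 to 53.9 on the 6 arrays and gives no level here.

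The disulfide isomerases were spread more widely than the chaperones. P4hb, the founding isomerase, read 5249, 8600 and 6364 in controls and 6846, 7752 and 7592 in CF (0.16 ± 0.19). Its second probe set was far dimmer, at 178.6 to 222.5 in controls and 120.4 to 230.3 in CF, and differed by -0.11 ± 0.39. Pdia6 had 3 probe sets with differences of -0.06 ± 0.20, 0.12 ± 0.20 and -0.14 ± 0.22. Pdia3, the isomerase that works with calnexin, read 430, 338 and 431 in controls and 667, 383 and 583 in CF. CF replicates 1 and 3 lay above all controls and CF replicate 2 within them (0.42 ± 0.27, adjusted p = 0.79 in limma).

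Pdia4 and Pdia5, further thioredoxin-fold isomerases, had the highest and the lowest difference among the 35 genes, with wide intervals. Pdia4 read 109, 742 and 532 in controls and 503, 674 and 536 in CF. The low value of CFTR+/+ replicate 1 set the difference of 0.69 ± 0.62 (interval -0.72 to 2.10), which was -0.15 without that array. Pdia5 read 236, 206 and 145 in controls and 172, 129 and 61.1 in CF, with CF replicate 3 lowest (-0.79 ± 0.51, interval -1.96 to 0.37). Neither passed, at adjusted p-values of 0.86 and 0.79 in limma.

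The oxidases that recharge the isomerases differed in sign. Ero1a read 2242, 2275 and 1853 in controls and 2509, 2538 and 2048 in CF (0.15 ± 0.17), and -0.03 ± 0.19 was the difference on its second probe set. Ero1b, the form enriched in pancreas and highly expressed in islets, read 3941, 4943 and 4127 in controls and 3808, 2962 and 3071 in CF, where the highest value fell below the lowest control (-0.40 ± 0.17, interval -0.78 to -0.03, unadjusted p = 0.038, adjusted p = 0.66 in limma). Its probe set has the name ending _f_at, used for sets that can also read related sequences, as do the brightest sets of Rpn1 and Rpn2. The 12 islet markers on the arrays summed to 19710, 79120 and 54130 in controls and 22890, 36510 and 60240 in CF, overlapping between the groups, and their part in the Ero1b value was not tested.

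The 3 tested genes of ER-associated degradation ran from -0.37 to 0.11 and none passed. Herpud1, which organises the degradation complex and whose promoter element is printed above, read 4914, 4733 and 6350 in controls and 5958, 6695 and 3444 in CF. The CF values were both the highest and the lowest of the 6, and the difference was -0.03 ± 0.25. Edem1, a lectin that passes misfolded glycoproteins on for disposal, read 1704, 1401 and 2256 in controls and 1261, 1194 and 1673 in CF (-0.37 ± 0.22, adjusted p = 0.78 in limma). Each CF value was below the control of the same replicate number. Sel1l, the adaptor of the ubiquitin ligase Syvn1, differed by 0.11 ± 0.23 and 0.10 ± 0.17 on its 2 probe sets.

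The member of smallest p was Sec61a1, which encodes the pore of the translocon. It read 2991, 3386 and 3716 in controls and 4978, 4892 and 4556 in CF, a 1.43-fold higher level in CF (interval 1.14 to 1.80). The groups did not overlap and the log2 difference was 0.52 ± 0.15 (unadjusted p = 0.0063), but the adjusted p of 0.40 in limma did not pass. This set was the brighter over all 6 arrays, though not in controls, where it averaged 3365 against 3518 for the other set. The difference ranged from 0.44 to 0.59 over 15 alternatives, 6 of which left out an array. The second Sec61a1 probe set read 3439, 3308 and 3807 in controls and 4172, 3609 and 4455 in CF, with overlap (0.21 ± 0.15, adjusted p = 0.81). Sec61b, a small subunit of the same channel, read 3163 to 3416 in controls and 2701 to 3326 in CF (-0.11 ± 0.15).

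The translocon-associated complex of Ssr proteins, which helps certain signal peptides open the channel, had a positive difference on every tested probe set. Ssr3 differed by 0.16 ± 0.14, 0.32 ± 0.14 and 0.07 ± 0.16 on 3 probe sets. The middle one read 4396, 4534 and 4600 in controls and 6402, 5328 and 5231 in CF, without overlap (adjusted p = 0.67 in limma). Ssr1 read 1365, 1676 and 1693 in controls and 959, 2281 and 3070 in CF, with the CF values spanning the controls (0.26 ± 0.38). This was the brighter of its sets. Its dimmer probe set differed by 0.52 ± 0.28, and Ssr2 by 0.22 ± 0.19. Ssr4 was at 16 to 40.3, under the floor. No Ssr probe set passed.

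Subunits that deliver and trim the nascent chain had small differences. Srp14, which with Srp9 forms the translation-pausing end of the signal recognition particle, read 2409 to 2585 in controls and 2468 to 2829 in CF (0.09 ± 0.14, interval -0.23 to 0.42). Srp9 read 1230, 2428 and 2038 in controls and 1812 to 2031 in CF (0.08 ± 0.25). Spcs2, a subunit of signal peptidase, differed by 0.12 ± 0.21. Of the 8 tested genes of targeting and translocation, 7 had a positive difference and the median was 0.14.

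The oligosaccharyltransferase attaches the N-linked sugar. Its 4 genes in the list held the lowest median of the roles, -0.10. Ddost, a structural subunit, read 1186, 1336 and 1335 in controls and 778, 782 and 1132 in CF. The groups did not overlap, with CF replicate 3 close to the lowest control (-0.54 ± 0.20, interval -1.0 to -0.08, unadjusted p = 0.028, adjusted p = 0.62 in limma). The other listed subunits had smaller values, a contrast that was not tested. Rpn1 differed by -0.11 ± 0.19 and 0.06 ± 0.21 on its 2 probe sets, Rpn2 by 0.04 ± 0.15 and 0.16 ± 0.18, and Ostc by -0.10 ± 0.16. Subunits outside the members were positive on their brightest sets, so the low median describes the listed genes only. Stt3a differed by 0.43 ± 0.27, without overlap, Stt3b by 0.16 ± 0.18, Dad1 by 0.10 ± 0.16 and Krtcap2 by 0.03 ± 0.16.

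**Figure D4:**
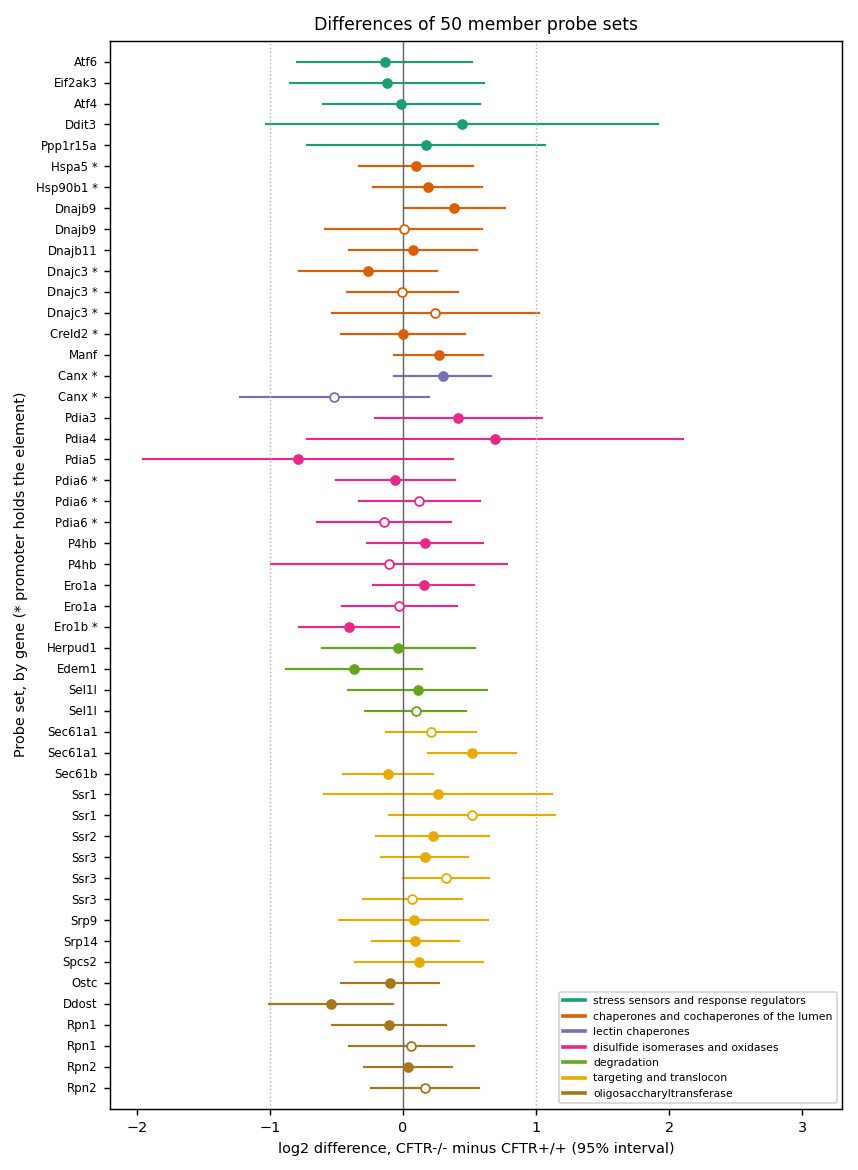
Log2 difference between CFTR-/- and CFTR+/+ with its 95% interval from limma (horizontal axis) for the 50 tested member probe sets, coloured by role, with filled points for the brightest probe set of a gene, open points for the others and dotted lines at a 2-fold change. Asterisks mark genes whose promoter holds CCAAT, 9 bases and CCACG; their points lie on both sides of 0.

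Counted over genes, 4 of the 35 had all CF values above all control values (11.4%, background 7.34% of genes), namely Sec61a1, Dnajb9, Manf and Canx. Another 2, Ero1b and Ddost, had all CF values below (5.71%, background 5.88%). Over probe sets the counts were 5 of 50 higher (10.0%, background 7.37%) and 3 lower (6%, background 5.62%). The CF arrays take part in choosing the brightest set, and Sec61a1 is the member for which this mattered: its other set was the brighter in controls and overlapped. With sets chosen by the control arrays alone, 3 of 35 genes were higher without overlap (8.57%, background 7.24%) and 2 lower (5.71%, background 5.91%), shares near the background. Of the 12 genes with several tested probe sets, 6 had the same sign on all of them and 6 did not.

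The members whose promoters hold the ER stress response element differed in sign. Of the 9, Hspa5, Hsp90b1, Dnajc3, Creld2, Canx, Pdia6 and Ero1b were tested. Their differences ran from -0.40 for Ero1b to 0.30 for Canx with a median of 0.00, 3 positive and 4 negative. The 23 tested members whose listed promoters lack the element ran from -0.79 to 0.69 with a median of 0.09. These 23 include Herpud1 and Dnajb11, which hold the related arrangement with the 1-base spacer. Adjusted p-values of the 7 were 0.66 or higher in limma.

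Other genes of the secretory pathway were read from lists of 123 further stress, folding, degradation, translocation, glycosylation and transport genes, of which 87 were tested. None of their 108 probe sets passed the adjusted threshold, and the median over genes was 0.05. At an unadjusted p under 0.05, 6 of the 108 were higher in CF and 1 lower, beside the 4.26% and 3.11% of all probe sets. Of the 87 genes, 10 had all CF values above the controls (11.5%, background 7.34%) and 3 below (3.45%, background 5.88%). Sar1b, the GTPase that starts COPII vesicle budding, read 274, 191 and 313 in controls and 443, 384 and 531 in CF (0.82 ± 0.29, adjusted p = 0.57 in limma). Lman2, a cargo lectin, read 1413, 1186 and 1266 against 1693, 1819 and 1621 on its brightest set (0.41 ± 0.16, adjusted p = 0.65). On its dimmer set the groups overlapped and the difference had the opposite sign (-0.13 ± 0.28).

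Sec11a, a catalytic subunit of signal peptidase, read 1455, 1459 and 1635 in controls and 1748, 2098 and 2009 in CF (0.36 ± 0.16, adjusted p = 0.67 in limma). The related subunit Sec11c was brighter, at 5240 to 6428 in controls and 5582 to 6282 in CF (-0.01 ± 0.14). Dnajc1, a membrane J-domain protein, differed by 0.47 ± 0.21. On the negative side, Rnf5, a ubiquitin ligase of the ER membrane, read 1673, 1938 and 1905 in controls and 1461, 1079 and 1519 in CF (-0.46 ± 0.19, adjusted p = 0.66). The coat subunit Copb2, the prolyl isomerase Fkbp2 and the stress factor Creb3l1 differed by -0.56 ± 0.25, -0.32 ± 0.15 and -0.37 ± 0.23. The groups overlapped for Copb2 and Creb3l1, and the dimmer Copb2 set differed by -0.15 ± 0.31. Among second probe sets, that of Srpr, a subunit of the signal recognition particle receptor, had the smallest p of the 108. It read 2793, 2702 and 3084 in controls and 4524, 3594 and 4354 in CF (0.53 ± 0.15, adjusted p = 0.43 in limma). The brightest Srpr set differed by 0.29 ± 0.15, also without overlap. Srprb, another subunit of that receptor, read 432 to 446 in controls and 348 to 368 in CF, lower without overlap (-0.28 ± 0.22). The 9 tested translocation genes outside the members had a median of -0.04, with 3 positive and 6 negative. Derl1, a channel component of degradation, differed by 0.79 ± 0.26 on its dimmer set and by 0.18 ± 0.20 on the brightest, and Sec62, a translocation factor, by -0.57 ± 0.30 and -0.49 ± 0.27 on its dimmer sets and by 0.06 ± 0.20 on the brightest. The 12 tested stress response genes outside the members had a median of -0.03, with 4 positive and 8 negative. Of their 14 probe sets, 0 had an unadjusted p under 0.05. Xbp1 read 12307, 10536 and 15197 in controls and 12742, 15709 and 20752 in CF (0.36 ± 0.21, adjusted p = 0.76 in limma). Each CF value was above the control of the same replicate number. With the title suffix as a block in limma, the unadjusted p of Xbp1 was 0.036 and the adjusted p 0.4. Xbp1 was not singular in this: other listed genes had a smaller unadjusted p in that limma fit. Among them were Sar1b (0.011) and Lman2 (0.028), higher in CF, and Copb2 (0.029), lower. Cebpb (0.81 ± 0.44) and Ddit4 overlapped between the groups. Ddit4 read 763, 616 and 1431 in controls and 2559, 4719 and 678 in CF.

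Marker lists of the cell types of the organ had medians on both sides of 0, no marker passed the adjusted threshold in limma, and their part in the values above was not tested. Of 12 acinar markers, 10 had a negative difference (median -0.16), with sums of 788900 to 1077000 in controls and 744100 to 845600 in CF. Of 7 tested B and plasma cell markers, all 7 were negative (median -0.78), with sums over the 9 on the arrays of 5531 to 11230 in controls and 3468 to 6805 in CF. All 7 tested duct markers were positive (median 0.62; sums 7420 to 9136 and 10060 to 12000), but unevenly. Krt8 and Krt19 differed by 0.04 each, Cldn4 by 1.58, and Krt7 was too dim to test. Much of the separation of the duct sums was in Krt18, which averaged 3462 in controls and 5344 in CF. The medians were -0.65 for 12 fibroblast and matrix markers, -0.77 for 11 macrophage markers, -0.93 for 8 adipocyte markers and -0.07 for 11 islet markers. Sums overlapped between the groups for each of these 4 lists. Compared within the pairs of one title suffix, the CF sum was lower in 3 of 3 pairs for the acinar, B and plasma cell, adipocyte and fibroblast lists. It was higher in 3 of 3 for the duct list, in 2 for the islet list and in 1 for the macrophage list. No marker on the arrays stayed at or under the floor on all 6.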

How the data were processed

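For each array the authors deposited 1 linear intensity per probe set; the software is not given in the sources used. Means after trimming 2% at each end were 500.27 to 500.3 on all arrays, so no rescaling was applied. Genotype came from the sample descriptions and replicates 1 to 3 from the title suffixes (none, B, P). Probe sets with several symbols (396) or none (1237) were not named; 10839 were matched to GRCm38.p6 gene names by identifier.

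Values under the pooled 20th percentile (47.6) were raised to it, log2 was taken, 66 control probe sets were removed, and probe sets with at least 3 arrays above the pooled 40th percentile (140.2) were fitted in limma 3.58.1 (R 4.3.3; intensity trend, Benjamini-Hochberg over 7739). All p-values, SEs and 95% intervals are limma's, and intervals are not adjusted for the number of genes. The fit was tested on simulated data. "Brightest" means the highest mean log2 value over all 6 arrays.

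Deviations correlated at 0.23 to 0.26 between arrays of the same suffix and -0.18 to -0.05 otherwise, and mice with the same suffix were therefore treated as pairs in the blocked fit.

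Members and lists were chosen with earlier results of these data known. Every member could be named. Of the other pathway genes, the 4 of smallest p per direction on their brightest set were named. Xbp1, Ddit4, Cebpb, Srprb, Sec11c, Stt3a, Stt3b, Dad1 and Krtcap2, set beside genes of the same complex or response, were added after values were seen. Srpr and Derl1, with small p on another set, and Sec62, with other sets of opposite sign, were also added after values were seen. So were the promoter element with the 1-base spacer and the choice of probe sets by the control arrays. Alternatives covered scaling, floor, filter, variance model, array weights, the suffix block, the threshold and leaving out each array.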

Additional observations from a re-analysis of the deposited data

How the results depend on the processing

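Under 15 alternatives of scaling, floor, filter, variance model, array weights, block and left-out arrays, and at a threshold of 0.1, 0 member probe sets passed; the lowest adjusted p of a member ran from 0.25 with array weights to 0.94 without CFTR-/- replicate 2. With the title suffix as a replicate block, the calls over all probe sets were 10 and the members at an unadjusted p under 0.05 were 6, adding Edem1 and Ssr3 to Sec61a1, Dnajb9, Ero1b and Ddost; the block changed no member's call. The 5 calls over all probe sets became 10 with the floor at the 40th percentile, 0 with no filter, 3 with no intensity trend, 12 with array weights and 17 at a threshold of 0.1. They ranged from 1 to 11 with an array left out.

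The 4 member probe sets at an unadjusted p under 0.05 became 7 with no filter and 2 with no intensity trend, and 1 to 4 with an array left out. Genes without overlap ranged from 4 to 8 higher and from 2 to 6 lower with an array left out, which makes the groups smaller. Smaller groups overlap less often over all genes too. Shares over all genes or probe sets are not given for these alternatives or for the blocked fit. Their counts are therefore not read as a result about the members. The median of the members ranged from -0.0368 without CFTR+/+ replicate 1 to 0.13 without CFTR-/- replicate 2; the cause was not tested. Of 523 values of single members under these alternatives, 523 moved by less than the replicate SD, and 30, in 16 genes, changed sign. The first count is no measure of stability, since for many alternatives it could not come out otherwise. The variance models and the suffix block leave a difference unchanged, and leaving out 1 of 3 arrays can shift it by only part of that SD. Pdia4 ranged from -0.15 to 1.23. Sec61a1, Dnajb9, Manf, Canx, Ero1b and Ddost kept their signs in all 15; averaging a gene's probe sets turned Canx to -0.11. Choosing probe sets by the control arrays alone, an alternative added after seeing the data, gave 3 genes higher and 2 lower without overlap and the same median of 0.09. Only 3 arrays a group limit all intervals.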
